A study of Mus musculus with 16 samples.

Results

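The genes described here are 9 genes tied to a rare olfactory neuron type, the guanylyl cyclase D (GC-D) neuron, and to the MS4A family of membrane proteins: Gucy2d, Car2, Pde2a, Cnga3, Ms4a4c, Ms4a6b, Ms4a6c, Ms4a6d and Ms4a7. They were taken by name from the array annotation, not by any measured value, and each has 1 of the 19572 array features that carry a single gene symbol. The question was how these genes were distributed between the sorted cell fractions of mouse olfactory mucosa, and whether exposure to odor moved them.

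GC-D neurons are scattered sensory neurons of the main olfactory epithelium that send their axons to the necklace glomeruli of the olfactory bulb. They lack the cyclic AMP cascade of ordinary olfactory neurons and signal through cyclic GMP, which is made by the receptor cyclase Gucy2d, broken down by the phosphodiesterase Pde2a and sensed by a channel that contains Cnga3. The carbonic anhydrase Car2 lets them respond to carbon dioxide, the peptides guanylin and uroguanylin (Guca2a and Guca2b) activate the cyclase, and MS4A proteins serve as chemoreceptors in these cells. Outside the nose, several Ms4a genes are best known from macrophages, monocytes and lymphocytes, Car2 from red cell precursors, and Pde2a from several blood and nerve cell types.

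The material came from 24 male and female mice of the C57BL/6 strain that were 7 to 12 weeks old, all carrying the S100a5-tauGFP reporter, in which a gene linked to olfactory neuron activity drives a fluorescent protein. Each mouse sat alone in a chamber for 40 h under an air flow of 3.1 L/min. From 26 h on it received a 10 s pulse every 20 min, of a mixture of undecanal and bourgeonal (odor) or of filtered air (vehicle). Mice were pooled by 3, giving 4 odor and 4 vehicle pools, and the dissociated mucosa of each pool was sorted by fluorescence into 2 fractions. Each fraction was hybridized to its own Clariom S array from 50 to 100 ng of RNA, which made 16 arrays in 4 groups of 4.

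The sample titles call the fractions GFP- and GFP+, while the cell type field of the same samples gives the opposite sign on all 16 arrays. In 8 of 8 pools S100a5 itself gave more signal in the GFP- titled array, by 0.71 to 2.43 on the log2 scale. The titles are kept here as names only ("titled GFP-", "titled GFP+"), and which of the fractions held the fluorescent cells was not settled by the labels. Values are the deposited log2 signals, in which a step of 1 is a doubling. Arrays of the same group correlated at 0.979 to 0.995 over all features. The median signal was 6.81 in the arrays titled GFP- and 7.16 in those titled GFP+. An array's background was set at the 95th percentile of its 23 control sets graded by GC content and lay between 6.87 and 7.41. Omp, the general marker of mature olfactory neurons, was between 18.31 and 18.68 on every array of both fractions. The number of arrays limits the precision of every value below.

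By these measures the defining GC-D genes were not seen. Gucy2d, the cyclase for which the neuron is named, was above background on 0 of 16 arrays. In vehicle pools 1 to 4 its signal was 2.86, 3.16, 3.45 and 3.16 in the fraction titled GFP- and 3.27, 3.12, 3.18 and 3.44 in that titled GFP+. In odor pools 1 to 4 it was 3.38, 3.00, 3.13 and 3.05 titled GFP- and 2.99, 3.07, 3.41 and 3.05 titled GFP+. All 4 groups overlapped, and the fraction difference (titled GFP- minus titled GFP+, here and throughout) was -0.09 ± 0.146 (SE, n = 4 per group, limma adjusted p = 0.704) in vehicle pools and 0.01 ± 0.146 (adjusted p = 0.97) in odor pools.

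Cnga3, the channel subunit, was likewise above background on 0 of 16 arrays. Its vehicle signals were 3.47, 3.34, 3.63 and 3.48 titled GFP- against 3.12, 3.48, 3.36 and 3.13 titled GFP+. In odor pools they were 3.57, 3.73, 3.34 and 3.49 (titled GFP-) and 3.33, 3.59, 3.43 and 3.43 (titled GFP+). The groups overlapped and the differences, 0.21 ± 0.126 (adjusted p = 0.291) and 0.09 ± 0.126 (adjusted p = 0.667), did not pass the test. With neither the cyclase nor the channel above background, these arrays gave no measure of GC-D neurons as such, and the genes are treated below one by one. A signal at background does not show that the neurons were absent.

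**Figure D1:**
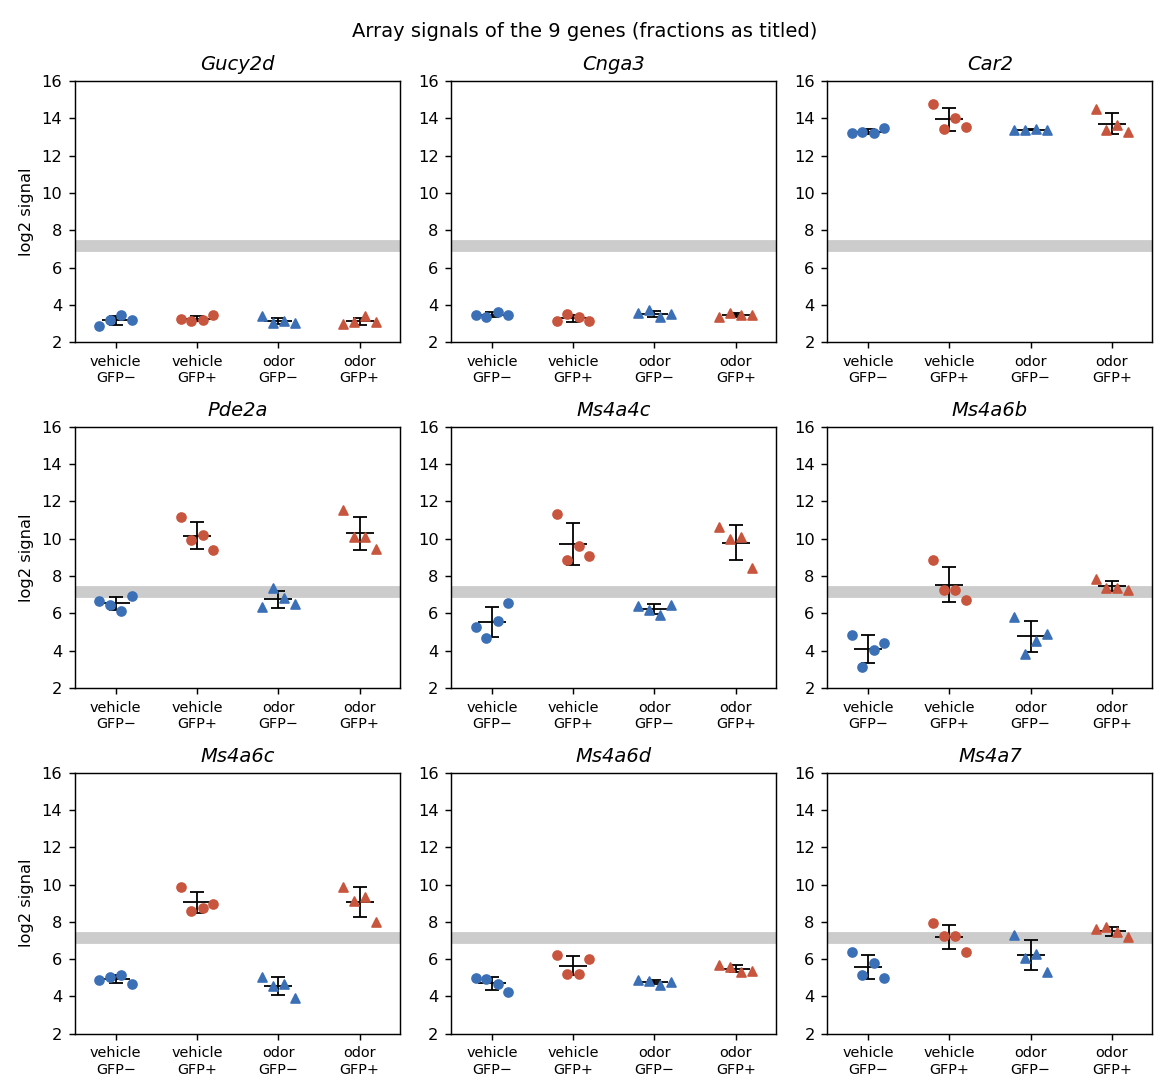
Log2 array signal of each of the 9 genes on each array (points, pools 1 to 4 from left to right within a group), by treatment and titled fraction; the horizontal bar is the group mean, the whiskers are 1 SD (n = 4) and the grey band is the range of array backgrounds, 6.87 to 7.41. Gucy2d and Cnga3 lie below the band on all arrays, Car2 lies above it on all arrays, and Pde2a, Ms4a4c and Ms4a6c are above it in the arrays titled GFP+ and mostly below it in those titled GFP-.

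Car2, cytosolic carbonic anhydrase, was far above background on 16 of 16 arrays. In vehicle pools 1 to 4 it gave 13.19, 13.28, 13.20 and 13.47 titled GFP- and 14.78, 13.44, 14.04 and 13.53 titled GFP+. In odor pools it gave 13.38, 13.39, 13.42 and 13.36 titled GFP- and 14.51, 13.39, 13.62 and 13.28 titled GFP+. The arrays titled GFP- were nearly alike (SD 0.13 in vehicle and 0.0222 in odor), whereas those titled GFP+ spread widely (SD 0.612 and 0.558) with pool 1 of each treatment and vehicle pool 3 the highest. The fraction titled GFP- was the lower in 7 of 8 pools, but the difference did not pass the test in vehicle pools (-0.66 ± 0.272, 95% interval -1.24 to -0.09, adjusted p = 0.111, 1.58-fold) or in odor pools (-0.31 ± 0.272, -0.89 to 0.26, adjusted p = 0.435, 1.24-fold). Without both pools numbered 1, an alternative chosen after the values were seen, it was -0.355 ± 0.171 (adjusted p = 0.213) in vehicle and -0.0412 ± 0.171 (adjusted p = 0.903) in odor pools.

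Pde2a, which hydrolyses cyclic AMP and cyclic GMP and is itself stimulated by cyclic GMP, was much higher in the fraction titled GFP+. Its vehicle signals were 6.65, 6.45, 6.11 and 6.91 titled GFP- and 11.17, 9.92, 10.19 and 9.39 titled GFP+. The odor signals were 6.33, 7.36, 6.81 and 6.49 titled GFP- and 11.54, 10.08, 10.11 and 9.43 titled GFP+. No array of one fraction reached those of the other, and only odor pool 2 exceeded its background in the fraction titled GFP-. The difference was -3.64 ± 0.406 (adjusted p = 5.7e-06) in vehicle pools and -3.54 ± 0.406 (adjusted p = 8.14e-06) in odor pools. Where a gene was at background in the dimmer fraction, a fold is given only as a bound, the bright mean against the mean of each dim array's background or of the gene's own signal if higher. On that rule Pde2a was at least 7.96-fold higher in the fraction titled GFP+ of vehicle pools and, with 1 dim array measured, at least 7.59-fold higher in that of odor pools. These bounds depend on the background: against the higher level of the negative control probe sets, added after the values were seen, they were 1.48-fold and 1.35-fold for Pde2a and 1.09-fold for Ms4a4c in vehicle pools. At that level there was no bound for Ms4a4c in odor pools, nor for any of the other Ms4a genes described below.

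The 5 Ms4a genes were all lower in the fraction titled GFP- in 8 of 8 pools, by amounts that differed widely. Ms4a4c, Ms4a6b and Ms4a6c differed most, Ms4a7 less, and Ms4a6d stayed below background in both fractions. The proteins are small multi-pass membrane proteins encoded side by side on chromosome 19, and Ms4a6b, Ms4a6c and Ms4a6d are close copies. The probe sequences were not used here, so how far signal from 1 copy was picked up by the feature of another was not tested.

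Ms4a4c, known mainly from myeloid cells and lymphocytes, gave 5.24, 4.65, 5.59 and 6.57 in the vehicle fraction titled GFP- and 11.35, 8.86, 9.61 and 9.07 in that titled GFP+. Odor pools gave 6.41, 6.17, 5.90 and 6.43 titled GFP- and 10.61, 9.98, 10.10 and 8.44 titled GFP+. The fractions did not overlap, and the signal was above background on all arrays titled GFP+ and on none titled GFP-. The differences were -4.21 ± 0.524 (adjusted p = 1.93e-05, at least 5.84-fold) and -3.56 ± 0.524 (adjusted p = 0.000117, at least 5.83-fold).

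Ms4a6c, a gene typical of monocytes and macrophages, had the fraction difference with the smallest adjusted p of the 9 genes in both treatments. Its vehicle signals were 4.89, 5.02, 5.15 and 4.68 titled GFP- and 9.85, 8.59, 8.77 and 8.98 titled GFP+. In odor pools it was 5.04, 4.58, 4.65 and 3.91 titled GFP- and 9.85, 9.11, 9.32 and 7.97 titled GFP+. The pool differences all lay between -4.95 and -3.57, with no overlap between fractions. The fitted differences were -4.11 ± 0.347 (adjusted p = 2.82e-07, at least 3.65-fold) in vehicle and -4.51 ± 0.347 (adjusted p = 1.01e-07, at least 3.53-fold) in odor pools.

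Ms4a6b, best known from T cells and also present in myeloid cells, was above background on 6 of 16 arrays, all of them titled GFP+. The vehicle pools gave 4.82, 3.10, 4.05 and 4.39 titled GFP- and 8.88, 7.26, 7.25 and 6.72 titled GFP+. The odor pools gave 5.81, 3.80, 4.54 and 4.90 titled GFP- and 7.83, 7.38, 7.37 and 7.26 titled GFP+. The fractions did not overlap, but the bright signals sat close to background, on 3 of 4 arrays above it in each treatment. So the fitted differences of -3.44 ± 0.46 (adjusted p = 4.15e-05) and -2.70 ± 0.46 (adjusted p = 0.000471) carried measured bounds of only 1.27-fold and 1.17-fold.

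Ms4a7, a macrophage gene, gave 6.37, 5.17, 5.80 and 4.96 in vehicle arrays titled GFP- and 7.95, 7.24, 7.25 and 6.36 in those titled GFP+. In odor pools it gave 7.28, 6.04, 6.27 and 5.28 titled GFP- and 7.63, 7.72, 7.44 and 7.19 titled GFP+. The groups overlapped in both treatments although each pool went the same way. The differences passed the test at -1.63 ± 0.393 (adjusted p = 0.00783, at least 1.02-fold) in vehicle pools and -1.27 ± 0.393 (adjusted p = 0.0287, at least 1.19-fold) in odor pools. Leaving out vehicle pool 2 ended the vehicle call (adjusted p = 0.0552), and leaving out odor pool 2, 3 or 4 ended the odor call (adjusted p = 0.123, 0.0846 and 0.0887).

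Ms4a6d, another macrophage-expressed copy, was above background on 0 of 16 arrays. Vehicle signals were 5.01, 4.91, 4.68 and 4.23 titled GFP- and 6.22, 5.19, 5.21 and 5.99 titled GFP+. The odor signals were 4.86, 4.81, 4.62 and 4.78 titled GFP- and 5.71, 5.60, 5.29 and 5.34 titled GFP+. The fractions did not overlap, and the differences of -0.95 ± 0.224 (adjusted p = 0.00684) and -0.72 ± 0.224 (adjusted p = 0.0305) passed the test, but as both sides were below background no fold is given. The vehicle call was lost without vehicle pool 4 (adjusted p = 0.0742), and the odor call was lost without any single odor pool from 1 to 4 (adjusted p = 0.116, 0.102, 0.0832 and 0.0632).

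Altogether 6 of the 9 genes were lower in the fraction titled GFP- and none was higher, in vehicle and in odor pools alike. Over all 19572 features, 9.82% were called lower in that fraction and 7.05% higher in vehicle pools (16.9% in all), and 9.98% lower and 12.2% higher in odor pools (22.2% in all). The median difference of the 9 genes was -1.63 and -1.27, against 0.13 and 0.14 over all features. The split of all calls depended on the scaling: 58.2% of the vehicle calls were lower in the fraction titled GFP- as deposited, 41.3% after quantile normalization, 10.9% under centring on the median of the tested features ("the tested median") and 84.0% with arrays centred on the olfactory receptor median. In odor pools the same shares were 45.0%, 40.0%, 13.7% and 87.8%. Pde2a, Ms4a4c, Ms4a6b and Ms4a6c were called lower in both treatments under each of these scalings. In sorted pools of this kind, fewer cells of a type and less RNA per cell cannot be told apart.

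**Figure D2:**
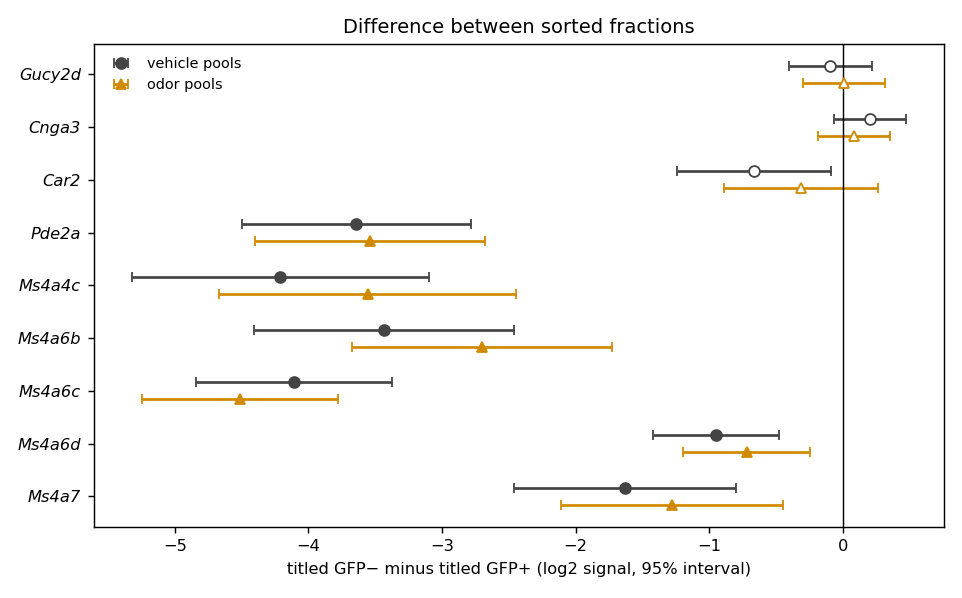
Fitted difference between the sorted fractions (titled GFP- minus titled GFP+, log2 signal) of each gene with its 95% interval, in vehicle pools (circles) and odor pools (triangles), 4 pools each; filled symbols passed limma's test at an adjusted p of 0.05. Pde2a, Ms4a4c, Ms4a6b and Ms4a6c lie between -4.51 and -2.70, while the intervals of Gucy2d and Cnga3 include 0 in both treatments.

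Promoter sequence was looked up for the 9 genes, from 250 bases before each start site in RefSeq's GRCm38.p6 table, which matched 7 of the 9 genes with 13 windows. Ms4a6c and Ms4a6b, the paired copies with clear fraction differences, are printed 5′ to 3′ below because their windows share an unbroken run of 48 bases, in capitals. The windows are chr19:11469118-11469367 (+ strand) for Ms4a6c and chr19:11518309-11518558 (+ strand) for Ms4a6b.
Ms4a6c: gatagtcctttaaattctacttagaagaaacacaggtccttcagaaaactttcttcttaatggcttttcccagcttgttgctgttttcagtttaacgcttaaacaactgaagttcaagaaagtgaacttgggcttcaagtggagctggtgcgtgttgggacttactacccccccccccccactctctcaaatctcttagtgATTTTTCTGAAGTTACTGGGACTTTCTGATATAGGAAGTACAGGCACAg
Ms4a6b: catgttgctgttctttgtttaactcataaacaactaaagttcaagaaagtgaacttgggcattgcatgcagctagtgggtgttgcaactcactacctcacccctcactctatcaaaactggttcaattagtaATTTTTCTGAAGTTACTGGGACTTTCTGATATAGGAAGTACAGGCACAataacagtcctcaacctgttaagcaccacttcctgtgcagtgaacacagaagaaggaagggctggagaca
Counted from the start site, the shared run spans -49 to -2 in Ms4a6c and -118 to -71 in Ms4a6b. The next longest run shared by windows of any pair of these genes was 11 bases. The 6-letter core of the myeloid and B cell factor Spi1, GAGGAA on either strand, was found in the Ms4a4c window (chr19:11407411-11407660, beginning at -61), in 3 of 5 Pde2a windows and in 2 of 2 Cnga3 windows. It was not found in the windows of Gucy2d, Ms4a6b, Ms4a6c or Ms4a7, and 23.3% of all 32851 windows hold it. The palindromic motif of the olfactory neuron factor Ebf, TCCC and GGGA separated by any 2 bases, was in 0 of the 13 windows and in 0.779% of all windows. These matches describe letters only.

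Along chromosome 19 the measured neighbors Ms4a7, Ms4a4c, Ms4a4b, Ms4a6c and Ms4a6b were all called lower in both treatments, by differing amounts. Ms4a6d and Ms4a3 were also called lower in both but stood apart from that run, after Ms4a4d and Ms4a2, which were not called. The order in RefSeq's GRCm38.p6 table runs from Ms4a10 through Ms4a5, Ms4a7, Ms4a4c, Ms4a4b, Ms4a6c, Ms4a6b, Ms4a4d and Ms4a6d to Ms4a2 and Ms4a3. The other 15 measured genes of the family include the related Tmem176a and Tmem176b. Of these 15, 4 were lower and 1 was higher in the fraction titled GFP- of vehicle pools. In odor pools 6 were lower and 0 higher. Over all features 9.82% and 9.98% were called lower, and 16.9% and 22.2% in either direction. Tmem176b, a gene of antigen-presenting cells, differed most, at -5.20 ± 0.328 (adjusted p = 1.12e-08, at least 14.9-fold) and -4.72 ± 0.328 (adjusted p = 3.35e-08, at least 12.3-fold). Tmem176a was at -2.93 and -1.96 and above background on 5 of 16 arrays. Ms4a3, a marker of granulocyte and monocyte precursors, was at -2.73 and -1.85 but above background on only 2 of 16 arrays. Ms4a4b, a T cell gene, was at -1.75 and -2.04 and above background on 1 of 16. Ms4a4d, between Ms4a6b and Ms4a6d, did not pass the test in either treatment. Ms4a1 (CD20, a B cell gene) and Ms4a8a passed in odor pools only, at -1.39 and -1.20 with signals below background; whether the treatments differed is covered by the interaction test below. The 1 gene called higher, Ms4a5 in vehicle pools (0.73), was below background. The higher calls followed the scaling: 4 lower and 4 higher in vehicle and 6 and 4 in odor pools under centring on the tested median, 5 and 1, and 6 and 0, after quantile normalization, and 5 and 0, and 6 and 0, with arrays centred on the receptor median.

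**Figure D3:**
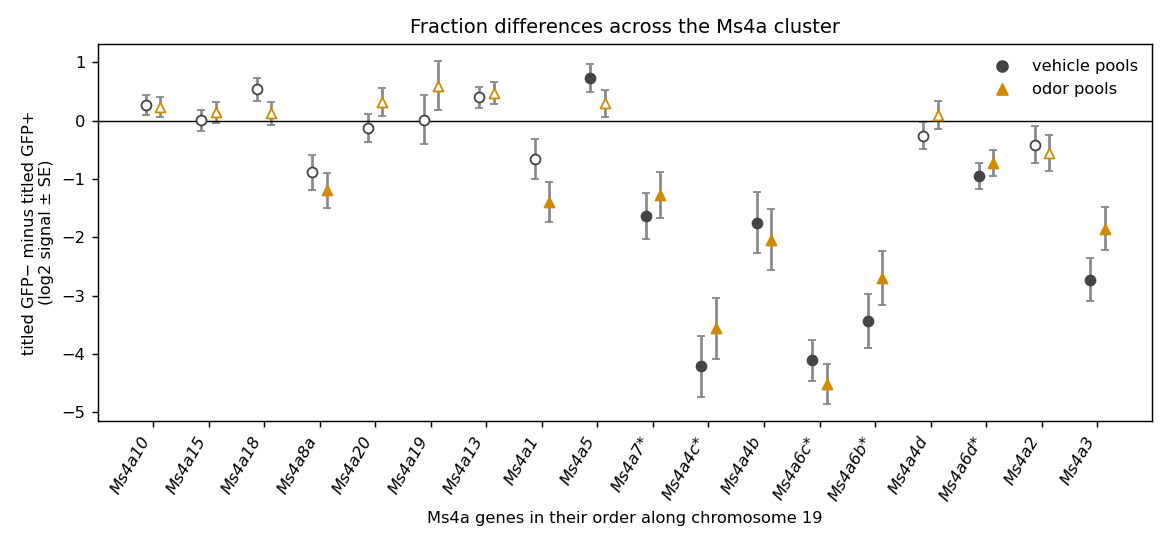
Fitted difference between the sorted fractions (titled GFP- minus titled GFP+, log2 signal, whiskers 1 SE) of the 18 measured Ms4a genes in their order along chromosome 19, which is not drawn to distance; asterisks mark the 5 genes described here, circles are vehicle pools, triangles are odor pools, and filled symbols passed the test. The largest differences, at Ms4a4c, Ms4a6c and Ms4a6b, stand beside Ms4a4b and Ms4a4d, which differed less.

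The genes whose signals ran most like each of the 6 that were above background on at least 4 arrays were ranked by Pearson's r over the 16 arrays, among 10305 features. Since the arrays hold both fractions, r mostly reflects the fraction difference and is given as a description. Ms4a6c ran closest to Mpeg1, Fcgr2b and Ncf1 (r = 0.994 for each), genes of macrophages and other phagocytes. Ms4a4c ran closest to Ifi211 (0.984), Selplg (0.982) and Clec12a (0.981), the latter pair being surface proteins of leukocytes. Pde2a ran closest to Dgka (0.991), Tmem131l (0.99) and Csf3r (0.989), the last being the receptor for granulocyte colony-stimulating factor. Ms4a6b ran closest to Hpgd (0.97), Ifi211 (0.968) and Fads2 (0.961), and Ms4a7 to Clec4a1 (0.908), Zpld2 (0.904) and Selenop (0.904). Car2 had a different set: Slc38a5 (0.949), an amino acid transporter, and Rrm1 (0.92) and Smc2 (0.912), genes of dividing cells.

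Markers of other cell types moved with the same fraction. All 19 measured macrophage and monocyte markers were lower in the fraction titled GFP-, in vehicle pools (median -3.76) and in odor pools (median -4.03). Their mean signal per array was 4.99 to 5.34 and 4.87 to 5.77 in the vehicle and odor arrays titled GFP-, and 8.91 to 10.24 and 8.54 to 9.91 in those titled GFP+. In the arrays titled GFP-, 17 of the 19 in vehicle and 16 of the 19 in odor were above background on none, among them the defining Csf1r, Fcer1g and Tyrobp. In the arrays titled GFP+, 5 of the 19 in vehicle and 7 in odor were also above background on none, and Adgre1, Aif1, C1qc, Cx3cr1 and Trem2 were below it on all 16 arrays. Of the 12 neutrophil markers 12 were lower in both treatments (medians -9.05 and -8.74), with array means of 5.14 to 5.85 titled GFP- and 12.79 to 14.99 titled GFP+. B and T cell markers were lower for 4 of 8 in each treatment, Cd79a most clearly at -2.58 and -2.82, and 2 of 7 mast cell and basophil markers, Hdc and Cpa3, were lower in both. The mast cell protease Cma1, below background on all arrays, was higher in vehicle pools (0.43, adjusted p = 0.0249). The part of these cells in the differences of Pde2a and the Ms4a genes was not tested.

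Erythroid markers, which bear on Car2, were lower in the fraction titled GFP- for 4 of 5 in both treatments. Car1, the carbonic anhydrase of red cells, differed by -5.09 ± 0.773 (adjusted p = 0.000153, at least 5.32-fold) and -4.04 ± 0.773 (adjusted p = 0.00131, at least 3.48-fold). Slc4a1, the red cell anion exchanger, was above background on 16 of 16 arrays and differed by -3.07 and -2.21. The array means of the list were 5.34 to 5.70 and 5.59 to 6.07 in the vehicle and odor arrays titled GFP-, and 7.01 to 9.99 and 7.36 to 9.82 in those titled GFP+, highest in the pools numbered 1 where Car2 was also highest. Among the other carbonic anhydrases, 15 were measured; besides Car1, Car8 was lower in vehicle pools (-0.80) and Car5b (0.56) and Car7 (0.61) were higher in odor pools, the last 3 below background and without a call under at least 1 other scaling. As deposited the 15 had 2 lower and 0 higher in vehicle pools and 1 and 2 in odor pools. These counts stand beside 16.9% and 22.2% of all features called in either direction. Under centring on the tested median the 15 had 1 lower and 9 higher in vehicle and 1 and 7 in odor pools. With arrays centred on the receptor median the counts were 2 and 0, and 1 and 0.

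Some markers of other cell types of the mucosa went the same way, to differing extents. Microvillar cell and ionocyte markers were lower in the fraction titled GFP- for 9 of 10 in each treatment, led by Trpm5 (-4.50 and -4.45), an ion channel of tuft-like cells, and Foxi1 (-4.20 and -3.37), the ionocyte transcription factor. Markers of basal, progenitor and immature neuronal cells were lower for 6 of 9 in each, led by Gng8 (-4.60 and -4.49) of immature neurons. Sustentacular cell markers were lower for 5 of 9 in vehicle and 6 of 9 in odor pools. Bowman gland markers were lower for 2 and 3 of 9 (list medians -0.37 and 0.19). These were Sox9, Lyz1 and, in odor pools, Sox10, while Bpifb9a, Bpifb9b, Obp1a and Obp2a were not called. Ensheathing glia markers were lower for 1 and 2 of 5 (-0.13 and -0.11), namely Apoe and, in odor pools, Sox10. Sox10, Fabp7, S100b and Frzb were above background on 0 of 16 arrays. Over all features 9.82% and 9.98% were called lower. Of 5 vomeronasal and type B neuron markers only the G protein subunit Gnai2, which leukocytes also express, was lower (-5.88 and -5.62). The 9 endothelial markers were below background on all arrays, and 0 were called in vehicle pools and 1, Tie1, higher in odor pools (0.49).

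Within the 8 arrays titled GFP+, the genes that were above background were set against the marker means. Here 42 relations were computed (6 genes against 7 lists), with exact permutation tests and Benjamini-Hochberg adjustment over the 42. The permutations treat the 8 arrays as exchangeable, although odor and vehicle pools of the same number deviated together in this fraction (0.147 to 0.547) and both pools numbered 1 held the highest Car2 and erythroid values, so these p-values leave that pairing out. Ms4a6c followed the macrophage and monocyte mean at r = 0.955 (exact permutation p = 0.000322, adjusted 0.00556) and rho = 0.881 (p = 0.00724, adjusted 0.038). Without the 2 arrays farthest from the median of the mean, vehicle pool 1 and odor pool 1, r was 0.952. With the neutrophil mean Ms4a6c was at r = 0.888 (exact permutation p = 0.00332, adjusted 0.0155). Its rho there was 0.857 (exact permutation p = 0.0107, adjusted 0.05), and r was 0.739 without vehicle pool 1 and odor pool 4. Ms4a4c followed the macrophage and monocyte mean at r = 0.956 (exact permutation p = 0.000149, adjusted 0.00556) and rho = 0.929 (p = 0.00223, adjusted 0.0187). That r was 0.874 without vehicle pool 1 and odor pool 1. With the neutrophil mean Ms4a4c was at r = 0.933 (exact permutation p = 0.00102, adjusted 0.00712). Its rho there was 0.952 (exact permutation p = 0.00114, adjusted 0.016). By r alone Ms4a4c passed with the erythroid mean (0.805, exact permutation p = 0.0166, adjusted 0.0456). It also did with the microvillar and ionocyte mean (0.806, exact permutation p = 0.00908, adjusted 0.0347).

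Pde2a followed the neutrophil mean at r = 0.877 (exact permutation p = 0.00188, adjusted 0.0113) and rho = 0.929 (p = 0.00223, adjusted 0.0187). The r was 0.805 when vehicle pool 1 and odor pool 4 were left out. With the macrophage and monocyte mean Pde2a was at r = 0.878 (exact permutation p = 0.00744, adjusted 0.0312). Its rho there did not pass (0.81, exact permutation p = 0.0218, adjusted 0.0762), and r was 0.606 without vehicle pool 1 and odor pool 1. Car2 followed the erythroid mean at r = 0.981 (exact permutation p = 0.000546, adjusted 0.00573) and rho = 0.881 (p = 0.00724, adjusted 0.038), with r = 0.915 without vehicle pool 1 and odor pool 1. Car2 also followed the microvillar and ionocyte mean, at r = 0.898 (exact permutation p = 0.000397, adjusted 0.00556), rho = 0.952 (p = 0.00114, adjusted 0.016) and r = 0.917 without vehicle pools 1 and 3. With the macrophage and monocyte mean Car2 was at r = 0.92 (exact permutation p = 0.000794, adjusted 0.00667) and rho = 0.952 (p = 0.00114, adjusted 0.016). That r was 0.61 without vehicle pool 1 and odor pool 1. With the neutrophil mean Car2 was at r = 0.879 (exact permutation p = 0.0027, adjusted 0.0142) and rho = 0.881 (p = 0.00724, adjusted 0.038). The relation of Ms4a6b to the macrophage mean (r = 0.79, exact permutation p = 0.016, adjusted 0.0456; rho = 0.571, p = 0.151, adjusted 0.317) rested on vehicle pool 1 and odor pool 1, as r was -0.0337 without them. By r Ms4a6b also passed with the neutrophil mean (0.765, exact permutation p = 0.0117, adjusted 0.0378). That r was 0.772 without vehicle pool 1 and odor pool 4. With the microvillar mean r was 0.902 (exact permutation p = 0.0174, adjusted 0.0456), and 0.686 without vehicle pools 1 and 3. With the B and T cell mean it was 0.8 (exact permutation p = 0.0188, adjusted 0.0464), but -0.507 without vehicle pool 1 and odor pool 1. Those relations did not pass by rho either. For Ms4a7 none of the 7 relations passed, its highest r being 0.636 with the neutrophil mean (exact permutation p = 0.0789, adjusted 0.127). The list means themselves correlated in these arrays, macrophage with neutrophil at 0.932, erythroid at 0.885 and microvillar at 0.845, and the others of these 4 among themselves at 0.824 to 0.834. So these 4 lists cannot be told apart as partners of a gene, while the sustentacular mean was at 0.136 with the macrophage mean. Each treatment holds 4 such arrays, too few for a value of its own.

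**Figure D4:**
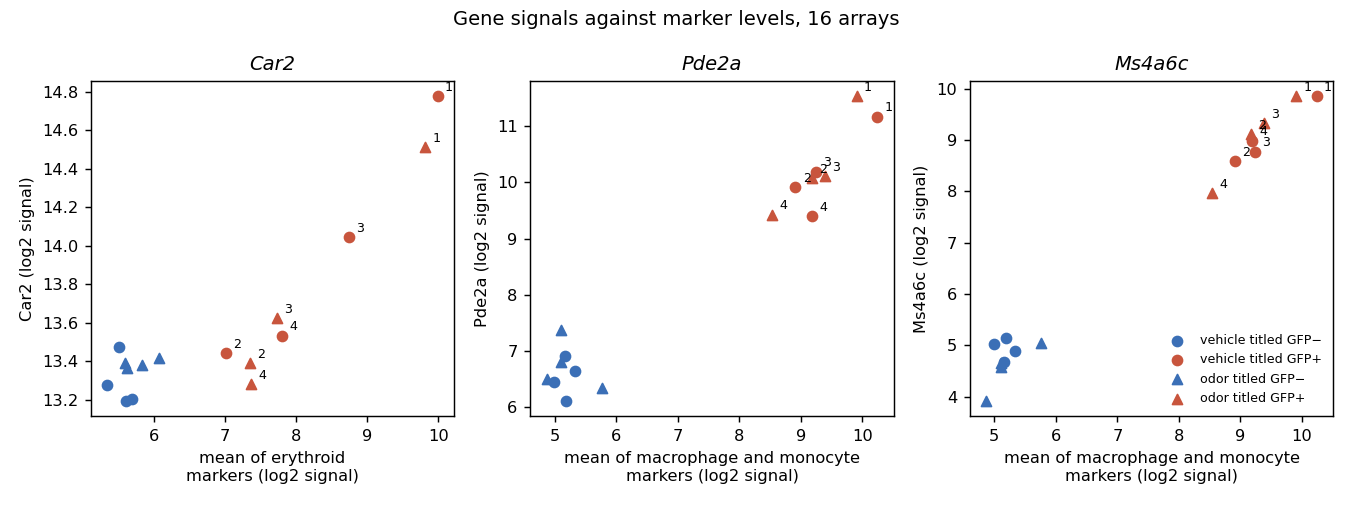
Log2 signal of Car2 against the mean of 5 erythroid markers, and of Pde2a and Ms4a6c against the mean of 19 macrophage and monocyte markers, one point per array (circles vehicle, triangles odor; blue titled GFP-, red titled GFP+; digits give the pool of the red points). Within the red points the correlation is 0.981 for Car2, 0.878 for Pde2a and 0.955 for Ms4a6c. Without vehicle pool 1 and odor pool 1 it is 0.915, 0.606 and 0.952. Car2 in the blue points stays between 13.19 and 13.47.

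Most of the rest of the cyclic GMP pathway did not pass the test. Of 38 measured genes, 4 were lower and 3 higher in the fraction titled GFP- of vehicle pools, and 1 was lower and 4 were higher in odor pools. These shares stand beside 16.9% and 22.2% of all features called in either direction, and the median difference was 0.23 and 0.20 against 0.13 and 0.14 over all features. The counts followed the scaling: 2 lower and 25 higher in vehicle and 1 and 17 in odor pools under centring on the tested median, 2 and 6, and 1 and 5, after quantile normalization, and 3 and 0, and 1 and 0, with arrays centred on the receptor median. Pde3b, a cyclic GMP-inhibited phosphodiesterase of fat and blood cells, was the lowest (-2.21 ± 0.311, adjusted p = 7.1e-05, and -2.42 ± 0.311, adjusted p = 2.84e-05). Pde10a was the highest of those called in both treatments (1.08 ± 0.171, adjusted p = 0.00023, and 1.00 ± 0.171, adjusted p = 0.000472), but lost both calls with arrays centred on the receptor median (adjusted p = 0.096 and 0.253). The peptide ligands Guca2a and Guca2b were above background on 0 of 16 arrays, as were the cyclases Gucy2c, Gucy2e, Gucy2f and Gucy2g and the channel subunits Cnga1 and Cngb3. The remaining calls in vehicle pools were Pde5a (-0.96), Pde9a (-0.92), Pde11a (-0.80), Gucy2c (0.44) and Cnga1 (0.72). Those in odor pools were Nppc (1.09), Gucy2c (0.47) and Nos1 (0.44). Among the called genes, Pde3b was above background on 4 of 16 arrays, Pde10a on 3 and Nppc on 1. The others were above it on 0 of 16, so all these differences lie near or below background.

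By contrast the cyclic AMP cascade of ordinary olfactory neurons was above background on all 4 arrays of every group for 15 of 16 genes. The exception, Cngb1, was above background on 1 of 16 arrays, with group means from 5.62 to 6.44. So a listed gene of this cascade could also go unseen here. Of the 16, 0 were lower and 3 were higher in the fraction titled GFP- in vehicle pools, and 0 and 4 in odor pools. These counts stand beside 16.9% and 22.2% of all features called in either direction, with 7.05% and 12.2% called higher. Pde1c, the phosphodiesterase of olfactory cilia, was higher by 0.57 ± 0.102 (adjusted p = 0.000723) and 0.71 ± 0.102 (adjusted p = 8.92e-05), and Ano2, the chloride channel, by 0.39 and 0.41. The counts followed the scaling, and each centring moves all features of an array together. Under centring on the tested median 16 and 15 of the 16 were higher. After quantile normalization 2 and 1 were higher, and with arrays centred on the receptor median 0 and 0. Under each of these scalings 0 were lower.

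Between odor and vehicle pools none of the 9 genes passed the test. In the fraction titled GFP-, odor minus vehicle ranged up to 0.71 (Ms4a4c, 95% interval -0.40 to 1.82), and the smallest adjusted p was 0.999. In the fraction titled GFP+, the largest difference was 0.29 (Ms4a7, -0.54 to 1.12), and the smallest adjusted p was 0.687. For Pde2a the intervals were -0.64 to 1.08 and -0.74 to 0.98, and for Ms4a6c -1.12 to 0.35 and -0.72 to 0.75. For Car2 they were -0.47 to 0.68 and -0.82 to 0.33. Changes inside these intervals could not be told from 0 by this test. Each interval took 1 spread per gene from all 4 groups, although spreads differed between fractions. The SD of Car2 was 0.13 (vehicle) and 0.0222 (odor) titled GFP-, against 0.612 and 0.558 titled GFP+. For Pde2a it was 0.34 and 0.456 against 0.747 and 0.89. Intervals from each fraction's own spread were not computed. Over all features, limma called 0 of 19572 (0%) in either fraction, with 805 and 2016 at an unadjusted p below 0.05, none of them among the 9 genes. The fit with the replicate number as a block called 1 feature in each fraction, neither of them among the 9 genes.

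The fraction differences did not pass a test of change between treatments. The interaction (odor minus vehicle fraction difference) called 0 of 19572 features (0%), with 739 at an unadjusted p below 0.05. Its largest value among the 9 genes was 0.74 ± 0.65 for Ms4a6b (95% interval -0.64 to 2.12, adjusted p = 1). It was -0.40 ± 0.491 for Ms4a6c, 0.65 ± 0.741 for Ms4a4c and 0.10 ± 0.574 for Pde2a, each within its error. The marker, pathway and family lists likewise had 0 genes called in the interaction and in both odor comparisons.

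**Figure D5:**
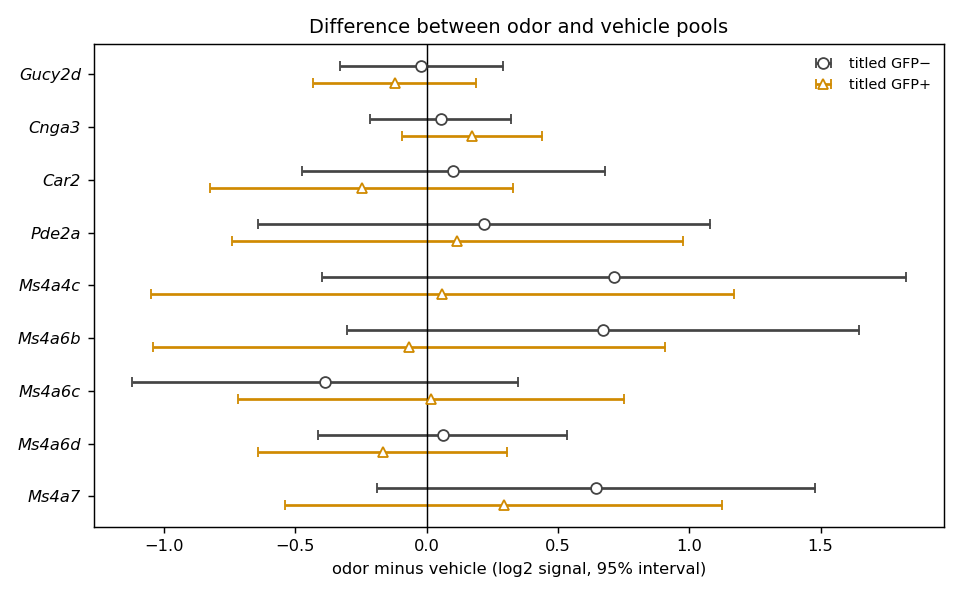
Odor minus vehicle difference (log2 signal, 95% interval) of each gene in the fraction titled GFP- (circles) and in that titled GFP+ (triangles), 4 pools per treatment. All symbols are open because no difference passed the test, and every interval includes 0.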

How the data were processed

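Fractions of mouse olfactory mucosa were measured on 16 Clariom S arrays, 4 per group. The deposited values are log2 signals per probe set (range 1.77 to 19.3), which the authors made with Affymetrix Expression Console, per the submitters' processing notes; its version and settings are not given in the sources used here, and the log2 unit was read from the values. No scanner files were used here, so the authors' background correction and normalization stand. All columns of the table were used.

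Of 28846 entries per array, the 19572 with a single gene symbol in GEO's platform annotation were tested; each of the 9 genes has 1 feature, so no choice between features arose. A single limma 3.58.1 fit (R 4.3.3; lmFit, contrasts.fit, eBayes, two-sided) took the mean of each group by title, with Benjamini-Hochberg adjustment over all features and a threshold of 0.05. Nothing says that pools of a group differ in more than their mice, so p-values measure the spread between pools. Background was the 95th percentile of the 23 GC-graded control sets of each array.

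The members and lists were chosen with earlier results of these data known. All 9 members were reported with each array's value. Of each list, counts by direction were given, and only some of the called genes by name. Genes most like a member were the 3 highest by Pearson's r. Car1 is in the erythroid and carbonic anhydrase lists, Ms4a1 and Ms4a2 are in the lymphocyte or mast cell list and the Ms4a list, Gucy1b2 and Cnga4 are also in the vomeronasal list, and Sox10 is in the Bowman gland and glia lists. Lists were also refitted under each scaling, an addition made after the data were seen.

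Both fractions of a pool come from the same mice, so the pool pairs them; their deviations correlated at 0.0957 to 0.337. Odor and vehicle pools hold different mice, and those of the same number correlated at 0.178 to 0.379 (titled GFP-) and 0.147 to 0.547 (titled GFP+). The alternatives were 3 other scalings, a filter on dim features, a replicate block (the pool for fraction terms, the number for odor minus vehicle), limma-trend with robust variance, another background, and leaving out pools. The fit was also tested on simulated data for the vehicle fraction comparison (200 of 19572 features changed). It recovered 69% of changes of 1 and 99% of changes of 3 on the log2 scale, with 7 false calls. The simulated arrays were independent, and each feature had the same spread in every group. So these figures do not cover the correlated pools and unequal spreads of the real arrays.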

Additional observations from a re-analysis of the deposited data

Results flagged for a closer look

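In the odor fraction titled GFP+, the mean signal of the 5 erythroid markers stood apart in pool 1, at 9.818 against 7.735 in the next highest array. The gap was 0.846 of the range of the 4 arrays, above Dixon's 95% critical value for 4 values. Car2 was also highest in that array of the group, at 14.51. Among 100 groups of 4 values examined this way, 1 stood out, where chance gives about 1 in 20.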

How the results depend on the processing

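Across 15 settings, 645 of 660 values of the 9 genes stayed on their side of the threshold or uncalled, 13 lost a call, 2 gained one and 0 called values changed sign. The lost calls were all of Ms4a6d and Ms4a7. Beside the left-out pools given with those genes, quantile normalization ended the odor calls of Ms4a6d (-0.60, adjusted p = 0.0506) and Ms4a7 (-1.04, adjusted p = 0.0702), and centring on the median of tested features (-0.42, adjusted p = 0.0966) or leaving out both pools numbered 1 (-0.68, adjusted p = 0.0707) ended that of Ms4a6d. Centring on that median also called Cnga3 (0.61, adjusted p = 0.00201, and 0.39, adjusted p = 0.0268), which was below background on all arrays. Leaving out single pools gave 5 to 6 called genes in vehicle and 4 to 6 in odor pools, and 0 to 0 in the interaction and both odor comparisons. The fit with the replicate block (each of the 8 pools for the fraction differences and the interaction, the replicate number for odor minus vehicle) called 6, 6, 0, 0 and 0 of the 9 genes, so this pairing changed no call among them. With the 95th percentile of the 5222 negative controls as background (9.14 to 10.9), 2 genes in place of 6 were above background on at least 4 arrays. The GC-graded level, also a 95th percentile, was lower (6.87 to 7.41). Which of these levels lies nearer the true background was not tested.

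The count of features called in vehicle pools, 3302, was 13985 with centring on the tested median, 2144 with centring on the receptor median and 2138 without vehicle pool 1. In odor pools 4338 became 11192, 2790, 2689 without odor pool 1 and 2817 without both pools numbered 1. The median difference of all features moved from 0.13 to 0.54 and -0.14 in vehicle pools and from 0.14 to 0.44 and -0.33 in odor pools under these centrings. The cause was not tested. Of the genes described, signals near or below background limit Ms4a6b, Ms4a6d, Ms4a7, Gucy2d and Cnga3, and against the negative controls also Ms4a4c, Ms4a6c and Pde2a.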
